A study of Mus musculus with 18 samples.

Results

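The 33 genes described here build the chromosome axis, the cohesin rings that sit on it, the synaptonemal complex that joins paired homologues, and the link that ties telomeres to the nuclear envelope in meiosis. They were chosen by symbol from a fixed list, with no cut on their values. Earlier results of these data were known when the list was made. All 33 were found among the 47216 gene symbols present in all 18 tables. By role, 6 encode the transverse filament or central element of the synaptonemal complex, 6 the axis or its remodelling, 5 telomere attachment, 4 meiosis-specific cohesin subunits, 5 mitotic or shared cohesin subunits, and 7 the loading, release or acetylation of cohesin. Of the 33, 32 had a value of at least 1 in every library. Sycp2l, a relative of Sycp2, was below 1 in every library and was not tested.

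Poly(A)-selected RNA was sequenced from male C57BL/6J mice that carried a Zfp541 mutation on 1 allele (Het, Zfp541+/-, the controls) or on both (KO, Zfp541-/-). Zfp541 encodes a zinc finger protein of male germ cells. The 6 groups were Het and KO testicular cells at postnatal day 14 (P14 testis), Het and KO testicular cells at postnatal day 18 (P18 testis), and Het and KO spermatocytes at postnatal day 18, with 3 libraries each. No wild-type group was analysed here, so every difference is between KO and a control with 1 mutant allele. The labels speak of biological replicates without saying that they are separate animals, so p-values measure the spread between these samples. Because the RNA is bulk RNA, fewer cells of a type and less RNA per cell cannot be told apart.

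In meiotic prophase, cohesin rings hold sister chromatids in a row of loops along the axis. Meiotic cells add the kleisins REC8 and RAD21L, the SMC protein SMC1B and the STAG protein STAG3 to the subunits that mitotic cells use. SYCP2, SYCP3 and the HORMA proteins coat the axes, and SYCP1 with the central element proteins zips them together as spermatocytes pass from zygotene to pachytene, while SUN1 and KASH5 couple telomeres to the cytoskeleton outside the nucleus.

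The stretch before the start site is shown for 4 members on which the results turn: Syce1 and Ccdc155, with the largest falls in KO, Smc3, which was higher in KO at P18 in both preparations, and Sycp1, the transverse filament gene, for which no difference of KO from Het passed. Each is the 250 bases before the RefSeq start on GRCm38.p6, 5′ to 3′ on the strand of the gene, and capitals mark matches to the motifs searched. The regions are chr7:140787855-140788104 for Syce1 (minus strand), chr7:45204893-45205142 for Ccdc155 (minus strand), chr19:53600146-53600395 for Smc3 (plus strand) and chr3:102936101-102936350 for Sycp1 (minus strand).
Syce1: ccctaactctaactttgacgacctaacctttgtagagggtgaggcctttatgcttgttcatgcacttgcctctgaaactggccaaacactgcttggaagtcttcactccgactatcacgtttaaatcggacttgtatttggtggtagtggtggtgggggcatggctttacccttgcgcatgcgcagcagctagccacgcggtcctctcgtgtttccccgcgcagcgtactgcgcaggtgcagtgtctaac
Ccdc155: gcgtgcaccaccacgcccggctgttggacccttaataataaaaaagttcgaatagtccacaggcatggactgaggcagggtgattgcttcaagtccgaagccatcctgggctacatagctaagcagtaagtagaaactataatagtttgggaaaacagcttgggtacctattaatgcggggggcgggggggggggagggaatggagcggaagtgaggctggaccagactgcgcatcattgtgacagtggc
Smc3: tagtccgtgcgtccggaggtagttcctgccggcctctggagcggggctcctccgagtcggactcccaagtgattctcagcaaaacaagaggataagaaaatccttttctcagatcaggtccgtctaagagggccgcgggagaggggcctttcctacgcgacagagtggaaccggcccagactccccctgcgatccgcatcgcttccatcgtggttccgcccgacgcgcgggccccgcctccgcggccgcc
Sycp1: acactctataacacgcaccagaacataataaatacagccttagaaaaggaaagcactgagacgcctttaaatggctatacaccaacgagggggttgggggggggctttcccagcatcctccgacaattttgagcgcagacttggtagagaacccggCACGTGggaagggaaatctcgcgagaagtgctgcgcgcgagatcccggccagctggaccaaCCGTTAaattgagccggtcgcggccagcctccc
Capitals in Sycp1 mark an E-box (CACGTG) and a MYB site on the opposite strand, and the other 3 stretches hold none.

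The promoters of 26 members were in the RefSeq table (30 promoters), and Terb2, Majin, Rad21, Stag2, Nipbl, Esco1 and Esco2 had no entry. Motifs were searched on both strands from 250 bases before to 50 after each start. The E-box CACGTG was in 26.7% of the members' promoters (8 of 30, from 7 members) and 7.15% of all 32851. The E2F motif TTCCCGCC was in 16.7% (5 of 30, from 4 members) and 2.19%, and the STRA8 motif CNCCTCAG in 23.3% and 7.94%. Each start counts on its own, so Hormad1, with overlapping stretches, enters more than once for the E-box, E2F and MYB. A MYB site, spelled as TAACGG, or as TAACTG, or as CAACGG, or as CAACTG, was in 33.3% and 28.3%. No member promoter held the core motif of CTCF, found in 0.0365% of all promoters. The E-box was in Sycp1, Sycp3, Syce2, Tex12, 4930447C04Rik, Hormad1 and Stag3. Of these 7 only Stag3 passed a test of KO against Het, as lower in P18 testis. Of all genes, 17.4% were called lower and 6.95% higher there, and 25.5% and 9.28% in spermatocytes. A link between a motif and a difference by genotype was not tested. Median GC content was 61.5% for the members and 52.7% for all promoters, and the shares were not adjusted for it. These matches describe letters only.

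The depth of a library, in megareads recovered, was 17.96 to 21.12 for the P14 set, 12.81 to 16.95 for whole P18 testis, and 9.26 to 18.31 for the spermatocyte set. Values are RPKM or FPKM after rescaling, that is, per kilobase of exon, and a difference is on the log2(value + 0.5) scale as KO minus Het unless another pair is named. Zfp541 was 8.39, 10.1 and 10.3 in the P14 Het libraries and 3.52, 4.34 and 5.50 in KO (−1.04 ± 0.16 SE, limma adjusted p = 0.0720). In P18 testis it was 26.6, 21.2 and 19.2 against 10.04, 8.22 and 9.32 (−1.23 ± 0.13, limma adjusted p = 0.00403), and in spermatocytes 41.9, 32.6 and 57.9 against 13.6, 11.97 and 11.7 (−1.75 ± 0.20, limma adjusted p = 0.000794). The KO libraries lay below the Het libraries in all 3 sets and kept some transcript.

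Cell markers moved with genotype as well. The summed level of 8 pachytene markers was 31.4 to 55.5 in P14 Het and 6.79 to 11.8 in KO, 346 to 869 in P18 testis Het and 60.7 to 64.1 in KO, and 855 to 1945 in Het spermatocytes and 26.8 to 46.4 in KO. All 7 that could be tested were called lower at P18 in both preparations. Sums of 10 spermatogonial markers were higher in KO, 234 to 263 against 173 to 218 in P18 testis (3 of 9 tested called) and 470 to 568 against 274 to 386 in spermatocytes (5 of 10 called). Sums of 12 Sertoli markers were 1765 to 1789 in P18 testis KO and 1293 to 1610 in Het (4 of 12 called higher), and 5 of 6 macrophage markers were called higher there. In the spermatocyte libraries those Sertoli sums were 49.8 to 112, while 6 peritubular myoid markers summed to 57.8 to 200.5, against 99.0 to 143 in whole P18 testis, so the preparation labelled spermatocytes held myoid and spermatogonial transcripts too. Sums of 7 leptotene to zygotene markers overlapped between genotypes in each set. Single markers of these 7 moved both ways at P18. In testis 2 were called higher and 2 lower, and in spermatocytes 1 and 1. The part of these differences in the results below was not tested.

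**Figure D1:**
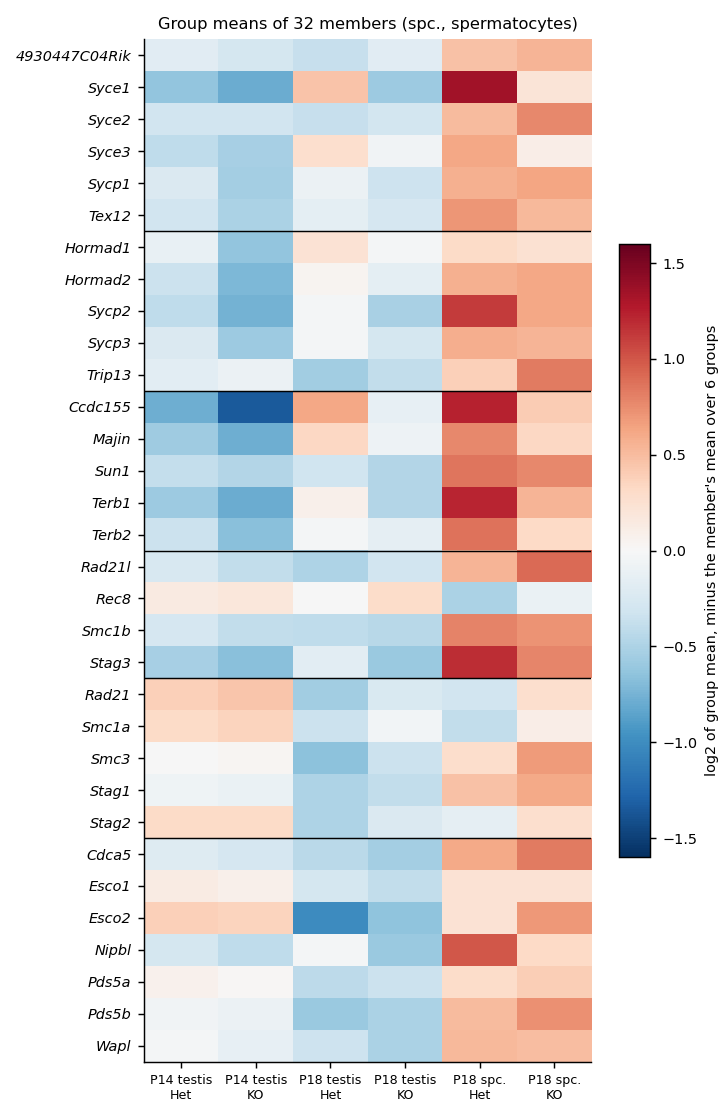
Mean levels of the 32 members (rows, ordered by role with lines between roles) in the 6 groups (columns), each as log2 minus that member's mean over the groups. Syce1, Ccdc155 and Nipbl are highest in Het spermatocytes and lower in KO, whereas Rad21 and Smc1a are higher in KO than in Het at P18; P14 columns of Rec8, Smc1b, Trip13, Rad21, Nipbl, Esco1 and Esco2 rest on other gene lengths.

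The controls alone show how the members differ with age and preparation. From P14 to P18 testis, 9 of the 25 members with 1 length in both table sets were called higher (26.4% of all genes tested) and 8 lower (36.0%). Those higher were Ccdc155 (1.36 ± 0.09), Syce1 (1.04 ± 0.16), Majin (0.88 ± 0.09), Syce3 (0.67 ± 0.10), Terb1, Sycp2, Hormad2, Hormad1 and Stag3, all with a role in meiosis. The 8 lower were the 4 mitotic or shared subunits that could be compared, Stag2 (−0.75 ± 0.07), Smc3 (−0.63 ± 0.06), Smc1a (−0.63 ± 0.08) and Stag1 (−0.41 ± 0.07), and the regulators Pds5b, Pds5a, Wapl and Cdca5. The other 8, among them Sycp1 (0.15 ± 0.14) and Sycp3 (0.21 ± 0.13), did not pass.

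In Het spermatocytes against Het P18 testis, 28 of 32 members were higher (32.0% of all genes tested) and Rec8 alone was lower (29.5%). Stag3 led the rises (1.33 ± 0.13), from 64.3, 54.7 and 51.0 in testis to 149, 118 and 166. Smc1b (1.19 ± 0.13), Esco2 (1.19 ± 0.10), Sycp2 (1.14 ± 0.14), Sun1 (1.13 ± 0.11) and Terb1 (1.12 ± 0.22) came next. Rec8, the kleisin that keeps sister chromatids joined until the second division, was 9.48, 11.7 and 11.6 in testis and 8.39, 8.29 and 6.51 in spermatocytes (−0.47 ± 0.12, limma adjusted p = 0.00460). Hormad1, Smc1a and Stag2 did not pass. Within both comparisons the sets differ in unit, RPKM or FPKM, and they can also differ in when they were made. Set and age or preparation therefore cannot be told apart. On the values as deposited Rad21 turned from 0.24 to −0.02 between preparations and Cdca5 from −0.21 to 0.04 between ages.

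At P14 no member passed the test of KO against Het, with 0.011% of 18143 genes called higher and 0.187% lower. At an unadjusted p under 0.05, 0 members were higher and 5 lower with limma, beside 482 and 1151 of the 18143 genes, and 1 (Ccdc155) was called lower on recovered reads with voom. The libraries did not overlap for 0 members with KO higher (6.6% of all genes) and for 6 with KO lower (8.98%), which were Ccdc155, Hormad1, Hormad2, Terb2, Sycp3 and Majin. In P18 testis 4 members were called higher (12.5% of 32, against 6.95% of 18180 genes) and 7 lower (21.9%, against 17.4%). In spermatocytes 6 were higher (18.8%, against 9.28% of 15969 genes) and 6 lower (18.8%, against 25.5%). Libraries of the 2 genotypes did not overlap for 7 members with KO higher (23.3% of all genes) and 14 with KO lower (25.8%) in P18 testis, and for 7 (19.9%) and 7 (32.4%) in spermatocytes. The share called lower was above that of all genes in P18 testis and below it in spermatocytes, and the share called higher was above it in both; none of these gaps was tested. The median difference over the members was −0.11 in P18 testis and 0.02 in spermatocytes, and over all genes 0.04 and −0.05.

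**Figure D2:**
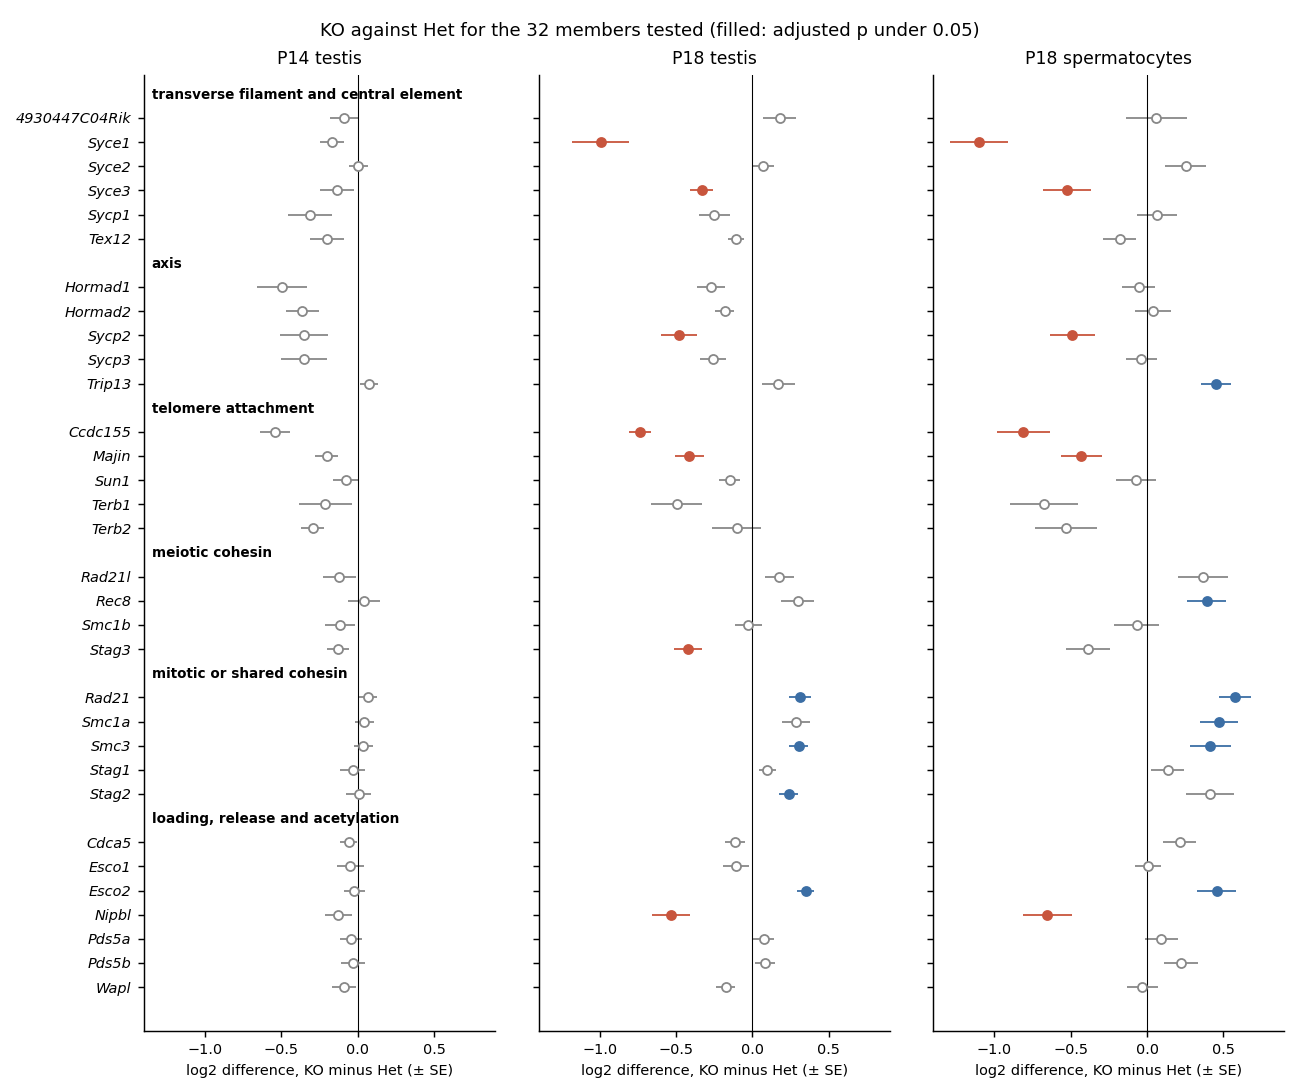
Log2 differences of KO minus Het (± SE, n = 3 and 3 libraries) for the 32 members tested, grouped by role, in P14 testis, P18 testis and spermatocytes. Filled points passed the test: Syce1 and Ccdc155 lie furthest left at P18, and the mitotic or shared cohesin subunits lie right of 0 in both P18 sets.

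Among the 6 genes of the transverse filament and central element, Syce1 and Syce3 fell and the other 4 did not pass in any set. Syce1, a central element protein needed to start synapsis (ENSMUSG00000025480.5, chromosome 7, 140777229 to 140787852, minus strand), was 97.8, 74.1 and 58.6 in P18 testis Het and 40.9, 38.5 and 33.4 in KO. In spermatocytes it was 132, 109.9 and 187 in Het and 69.7, 61.1 and 63.5 in KO. No KO library reached a Het library, and the KO libraries were closer together than the Het libraries. The fall was −0.99 ± 0.19 (limma adjusted p = 0.0159) in testis and −1.10 ± 0.19 (limma adjusted p = 0.00458) in spermatocytes. Among the P14 libraries Syce1 overlapped, 34.6, 36.0 and 38.3 in Het and 29.5, 31.6 and 35.8 in KO (−0.17 ± 0.08, limma adjusted p = 0.608).

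Syce3, the smallest of the central element proteins, fell less. It was 44.7, 41.9 and 46.3 in P18 testis Het and 34.7, 32.7 and 38.0 in KO (−0.33 ± 0.08, limma adjusted p = 0.0254), and 60.9, 48.5 and 59.8 against 42.6, 43.8 and 31.4 in spermatocytes (−0.52 ± 0.16, limma adjusted p = 0.0379). Each KO library was again below each Het library. Sycp1, the transverse filament itself, was 151 ± 23.0 (SD, n = 3) in P14 Het and 121 ± 18.4 in KO, 166 ± 10.9 against 140.3 ± 18.2 in P18 testis. In spermatocytes it was 262 ± 39.5 against 274 ± 27.2. Its interval in spermatocytes ran from −0.24 to 0.38, so differences of that size in either direction remain possible. Syce2, Tex12 and 4930447C04Rik (Six6os1), the other central element genes, had differences from −0.11 to 0.18 in P18 testis and from −0.18 to 0.25 in spermatocytes, and none passed.

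The call for Syce1 in P18 testis ended when Het replicate 2 or either of KO replicates 2 and 3 was omitted (limma adjusted p up to 0.0622), while in spermatocytes it held in all 6 (up to 0.0229). Syce3 lost its call without 4 of 6 libraries in testis (Het replicates 1 and 2, KO replicates 1 and 2, up to 0.0928) and in spermatocytes without any library but Het replicate 2 (up to 0.119). Its call also ended on values as deposited in both sets, and with median-of-ratios scaling in spermatocytes. Without a call in the main fit, Syce2 passed in spermatocytes in 2 of 9 other settings, and Sycp1 in P18 testis in 1 of 6 omissions.

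Of the axis genes Sycp2 fell, Trip13 rose in spermatocytes, and Sycp3, Hormad1 and Hormad2 did not pass in any set. SYCP2 binds SYCP3 along the axis. Sycp2 was 116, 97.4 and 89.99 in P18 testis Het and 80.9, 68.5 and 67.3 in KO (−0.48 ± 0.12, limma adjusted p = 0.0317). In spermatocytes it was 248.6, 181 and 243 against 175, 142 and 159 (−0.49 ± 0.15, limma adjusted p = 0.0380). The groups did not overlap in either set, but the lowest Het spermatocyte library was close to the highest KO library.

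Trip13, the ATPase that takes HORMA proteins off synapsed axes, was 16.6, 14.95 and 14.4 in Het spermatocytes and 20.7, 21.9 and 20.8 in KO (0.45 ± 0.10, limma adjusted p = 0.0103). Its libraries overlapped in P18 testis (0.17 ± 0.11, limma adjusted p = 0.282). Hormad1, a HORMA protein of unsynapsed axes, was 146, 129.8 and 138 in P18 testis Het and 126, 115 and 103 in KO, a gap of the libraries that did not pass (−0.27 ± 0.09, limma adjusted p = 0.0738). Hormad2 (−0.18 ± 0.06) and Sycp3 (−0.26 ± 0.08) likewise did not overlap in P18 testis and did not pass, and all 3 overlapped in spermatocytes. Sycp3 was the member with the highest level, 407 ± 39.5 in Het spermatocytes and 396 ± 22.6 in KO; 52.2% of its exon bases lie opposite exons of Chpt1, and reads of the pair cannot be told apart, because whether counting used strand is not stated. For Hormad1, 22.9% of its 50-mers also occur in other annotated genes.

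Sycp2 lost its call in testis when Het replicates 1 or 2, or KO replicates 2 or 3, were omitted (limma adjusted p up to 0.106). In spermatocytes it did so without any library but Het replicate 2 (up to 0.137), as well as on values as deposited and with median-of-ratios scaling. Trip13 lost it without KO replicate 2 (adjusted p = 0.0553). Sycp3, Hormad1 and Hormad2, not called in the main fit, each passed in P18 testis in 1 of 9 other settings and 0 of 6 omissions.

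Telomere attachment held the other large fall. Ccdc155 encodes KASH5, the outer nuclear membrane protein that recruits dynein to telomeres (ENSMUSG00000038292.14, chromosome 7, 45183624 to 45204892, minus strand). It was 39.5, 34.1 and 35.2 in P18 testis Het and 22.1, 21.1 and 21.3 in KO (−0.74 ± 0.07, limma adjusted p = 0.00361). In spermatocytes it was 57.1, 43.4 and 66.2 against 36.2, 28.4 and 28.9 (−0.81 ± 0.17, limma adjusted p = 0.0110). Already at P14 it was 14.7, 12.5 and 14.2 against 8.14, 9.95 and 9.94 (−0.54 ± 0.10), without passing (limma adjusted p = 0.106). Het and KO were apart in all 3 sets, and both P18 calls held whichever library was left out.

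Majin, which with TERB1 and TERB2 anchors telomeres in the inner nuclear membrane, was 21.4, 20.1 and 18.9 in P18 testis Het and 15.1, 16.7 and 13.3 in KO (−0.41 ± 0.09, limma adjusted p = 0.0259). In spermatocytes it was 27.9, 23.7 and 30.1 against 23.2, 18.2 and 18.8 (−0.43 ± 0.14, limma adjusted p = 0.0439). Its 2 partners did not pass in either set in the main fit. In spermatocytes Terb1 passed in 4 of 9 other settings of the fit and without 2 of the 6 libraries in turn. Terb2 passed there in 2 of 9 settings and in 0 of 6 omissions. In P18 testis Terb1 passed in 1 of 6 omissions. Terb1 differed by −0.50 ± 0.17 in testis (limma adjusted p = 0.0735) and −0.68 ± 0.22 in spermatocytes (limma adjusted p = 0.0523), and Terb2 by −0.10 ± 0.16 (limma adjusted p = 0.658) and −0.53 ± 0.21 (limma adjusted p = 0.0857). Sun1, the inner membrane partner of KASH5, did not pass in any set (−0.15 ± 0.07 in P18 testis, −0.07 ± 0.13 in spermatocytes). Majin lost its call in testis without Het replicates 1 or 2 or KO replicates 1 or 3 (up to 0.0830) and in spermatocytes without Het replicates 1 or 3 or KO replicates 2 or 3 (up to 0.156), and there also on values as deposited and with median-of-ratios scaling.

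**Figure D3:**
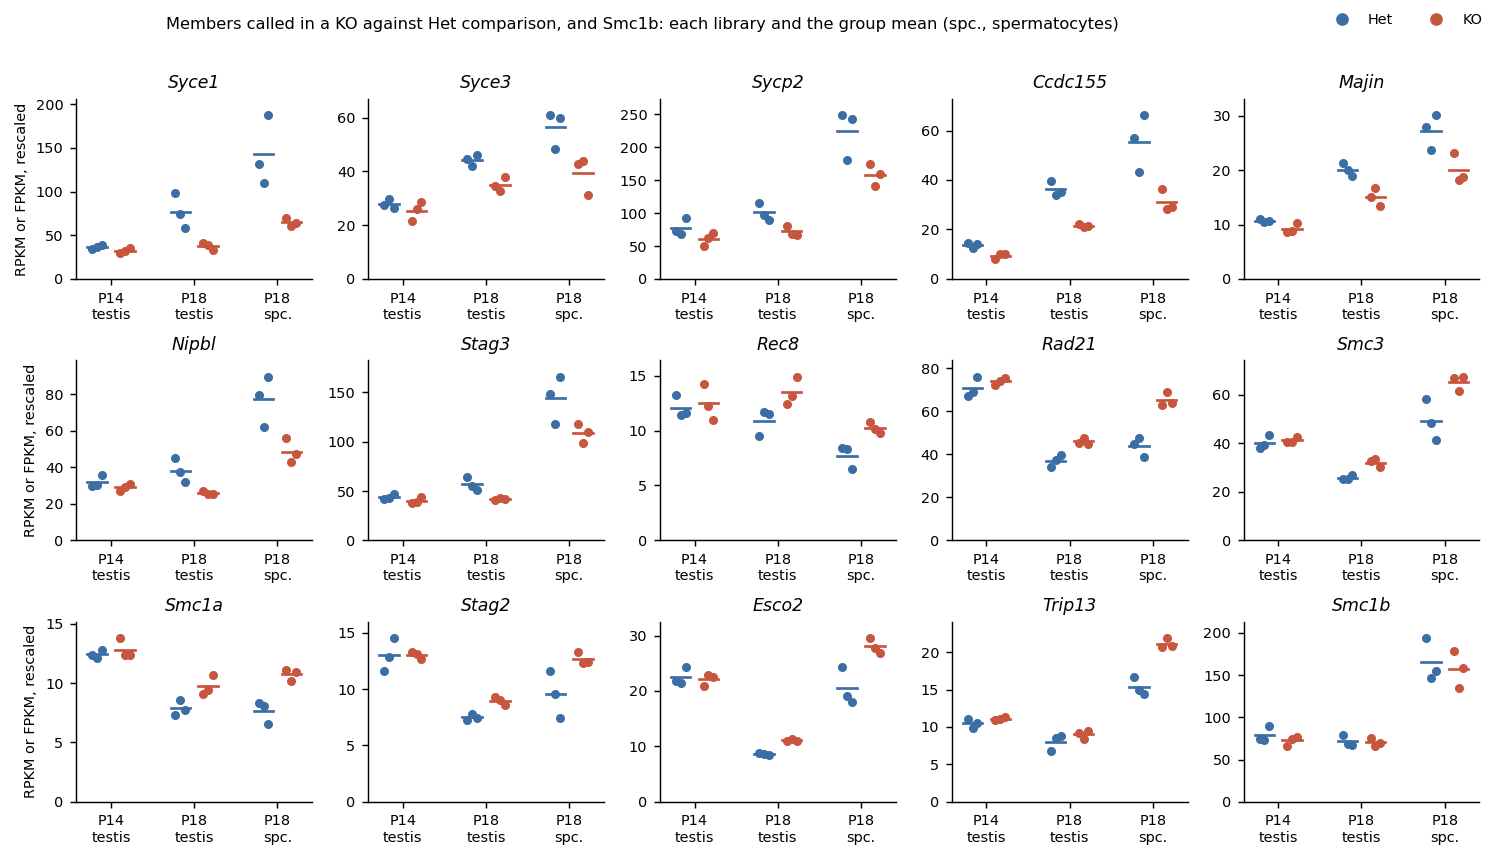
Rescaled RPKM or FPKM (linear axis from 0) of 14 members called in a comparison of KO with Het, and of Smc1b, in each library (points) with the group mean (bar), for P14 testis, P18 testis and spermatocytes (spc.). Het and KO points are apart at P18 for Syce1 and Ccdc155, with KO lower, and for Rad21, Smc3 and Esco2, with KO higher; P14 points of Nipbl, Rec8, Rad21, Esco2, Trip13 and Smc1b rest on other gene lengths.

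Of the 4 meiotic cohesin subunits, Stag3 fell in P18 testis, Rec8 rose in spermatocytes, and Smc1b and Rad21l did not pass in any set. Stag3, the meiotic STAG protein, was 64.3, 54.7 and 51.0 in P18 testis Het and 41.3, 43.02 and 41.6 in KO (−0.42 ± 0.09, limma adjusted p = 0.0222). In spermatocytes the libraries overlapped by a small margin, 149, 118 and 166 against 119, 98.8 and 110.4 (−0.39 ± 0.14, limma adjusted p = 0.0734). Rec8 was 9.48, 11.7 and 11.6 in P18 testis Het and 12.4, 13.1 and 14.9 in KO (0.30 ± 0.11, limma adjusted p = 0.0863). Its spermatocyte libraries were 8.39, 8.29 and 6.51 against 10.8, 10.2 and 9.77 (0.39 ± 0.13, limma adjusted p = 0.0491), so KO was higher in both and passed in spermatocytes.

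Smc1b, the meiotic SMC1, was 79.2, 68.8 and 67.1 in P18 testis Het and 75.4, 66.0 and 69.6 in KO, and 194, 147 and 155 against 179, 135 and 158 in spermatocytes. The libraries were interleaved in both sets (−0.03 ± 0.09 and −0.07 ± 0.15). Rad21l, the other meiotic kleisin, was 9.63, 9.27 and 11.1 against 11.1, 12.4 and 10.5 in P18 testis and 25.2, 16.4 and 19.96 against 29.0, 25.0 and 24.8 in spermatocytes, overlapping in both (0.17 ± 0.10 and 0.37 ± 0.16). At P14 none of the 4 passed: means in Het and KO were 43.9 and 40.1 for Stag3, 12.1 and 12.5 for Rec8, 78.8 and 72.6 for Smc1b, and 11.7 and 10.7 for Rad21l. Stag3 lost its call in testis without Het replicate 2 or any KO library (up to 0.0791), and Rec8 lost it in spermatocytes without any 1 of the 6 libraries (0.0512 to 0.142). Though not called in spermatocytes in the main fit, Stag3 and Rad21l each passed there in 2 of 9 other settings and 1 of 6 omissions.

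All 5 mitotic or shared cohesin subunits had KO above Het at P18, and 3 were called higher in each preparation, Rad21, Smc3 and Stag2 in testis (6.95% of all genes) and Rad21, Smc3 and Smc1a in spermatocytes (9.28%). Rad21, the mitotic kleisin, rose from 33.9, 37.4 and 39.6 to 45.3, 47.6 and 44.9 in P18 testis (0.31 ± 0.07, limma adjusted p = 0.0266). In spermatocytes it rose from 44.7, 47.6 and 38.9 to 62.8, 69.1 and 63.9 (0.58 ± 0.11, limma adjusted p = 0.00575). Smc3, present in every cohesin ring, rose from 25.3, 25.5 and 26.8 to 32.6, 33.5 and 30.1 in testis (0.30 ± 0.06, limma adjusted p = 0.0186) and from 58.3, 48.3 and 41.4 to 66.9, 61.5 and 67.5 in spermatocytes (0.41 ± 0.13, limma adjusted p = 0.0492). No KO library of either gene fell within the Het range.

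Smc1a, the mitotic SMC1, was 8.34, 8.06 and 6.53 in Het spermatocytes and 11.1, 10.2 and 10.97 in KO (0.47 ± 0.12, limma adjusted p = 0.0224), and 7.28, 8.58 and 7.75 against 9.07, 9.42 and 10.7 in testis, where it did not pass (0.29 ± 0.09, limma adjusted p = 0.0629). Stag2, an X-linked mitotic STAG protein, was 7.30, 7.78 and 7.47 against 9.29, 9.002 and 8.55 in testis (0.24 ± 0.06, limma adjusted p = 0.0413) and 11.6, 9.57 and 7.43 against 13.3, 12.3 and 12.4 in spermatocytes (0.41 ± 0.16, limma adjusted p = 0.0833). Stag1, its autosomal counterpart, was 12.9, 13.4 and 12.9 against 14.4, 14.1 and 13.6 in testis (0.10 ± 0.05) and 28.1, 23.6 and 25.1 against 28.6, 25.9 and 30.1 in spermatocytes (0.14 ± 0.11), and did not pass. The 5 were within −0.03 to 0.07 at P14.

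Rad21 kept its call in spermatocytes whichever library was left out and lost it in testis without Het replicate 2 or any KO library (up to 0.101). Smc3 lost its call in testis when Het replicate 2 or either of KO replicates 1 and 2 was omitted (up to 0.0805) and in spermatocytes without any library but Het replicate 1 (up to 0.146). Smc1a lost it without any 1 KO library (up to 0.0856) and Stag2 without any 1 of the 6 (0.0673 to 0.133). Some that were not called in the main fit passed elsewhere. Smc1a did so in P18 testis in 4 of 9 other settings of the fit and 0 of 6 omissions. In spermatocytes Stag2 passed in 3 of 9 settings and 1 of 6 omissions, and Stag1 in 1 of 9 and 0 of 6.

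The ratio of a meiotic subunit to its mitotic counterpart, both per kilobase, is given over the libraries as a description with no test. Smc1b over Smc1a was 8.02 to 10.9 in P18 testis Het and 6.52 to 8.31 in KO, which overlap, and 18.2 to 23.7 in Het spermatocytes and 13.3 to 16.0 in KO, which do not. Stag3 over Stag1 was 3.96 to 4.97 against 2.86 to 3.06 in P18 testis and 4.99 to 6.61 against 3.66 to 4.15 in spermatocytes, apart in both. Stag3 over Stag2 was 6.83 to 8.81 against 4.44 to 4.87 and 12.3 to 22.3 against 8.04 to 8.94, again apart.

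As plain ratios, the kleisin pairs did not separate the genotypes at P18. On the log2 scale with 0.5 added to each value, Rec8 over Rad21 did so in spermatocytes by a small margin. There it was −2.475 to −2.339 in Het and −2.71 to −2.494 in KO. The plain ratios follow. Rec8 over Rad21 was 0.280 to 0.312 in P18 testis Het and 0.275 to 0.332 in KO, and 0.167 to 0.188 and 0.147 to 0.171 in spermatocytes. Rad21l over Rad21 was 0.248 to 0.284 against 0.233 to 0.261, and 0.346 to 0.562 against 0.362 to 0.463. Among the P14 libraries Stag3 over Stag1 (2.43 to 2.602 against 2.31 to 2.38) and Rad21l over Rad21 (0.158 to 0.176 against 0.131 to 0.154) were apart with KO lower, and the other 3 ratios overlapped. A ratio shows that the pair changed unequally, not which gene changed.

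**Figure D4:**
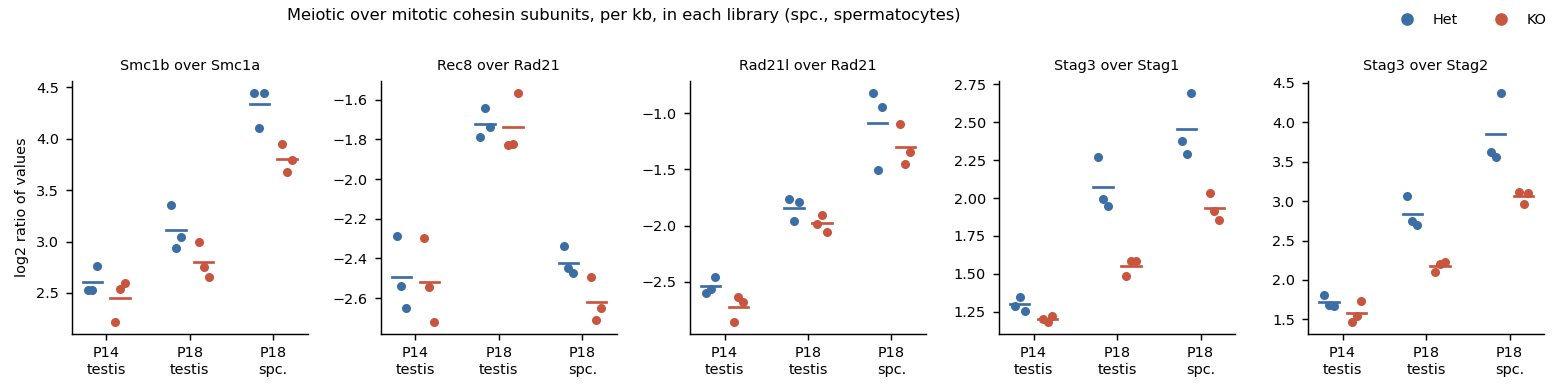
Log2 ratio of a meiotic to a mitotic cohesin subunit (both values + 0.5, per kilobase) in each library (points) with the group mean (bar), for P14 testis, P18 testis and spermatocytes (spc.). Het and KO are apart at P18 for Stag3 over Stag1 and Stag3 over Stag2. They overlap at P18 for Rad21l over Rad21. For Rec8 over Rad21 they overlap in P18 testis but not in spermatocytes, where KO is lower. P14 ratios with Rec8, Smc1b or Rad21 rest on other gene lengths than P18 ratios.

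Of the 7 genes for cohesin loading, release and acetylation, Nipbl fell and Esco2 rose. Nipbl, the cohesin loader, was 45.0, 37.3 and 31.7 in P18 testis Het and 26.9, 25.4 and 25.2 in KO (−0.54 ± 0.13, limma adjusted p = 0.0285), and 79.8, 62.1 and 89.7 against 55.9, 42.8 and 47.3 in spermatocytes (−0.65 ± 0.16, limma adjusted p = 0.0190). Esco2, which acetylates SMC3 in S phase, rose from 8.88, 8.55 and 8.41 to 11.0, 11.3 and 11.0 in testis (0.35 ± 0.06, limma adjusted p = 0.00889) and from 24.3, 19.1 and 18.1 to 29.6, 27.8 and 26.8 in spermatocytes (0.46 ± 0.13, limma adjusted p = 0.0295). For both genes Het and KO libraries were apart in both sets. Wapl, which opens the ring for release, was apart in P18 testis without passing (−0.18 ± 0.06, limma adjusted p = 0.0835) and overlapped in spermatocytes. Its cofactors Pds5a and Pds5b, the protector Cdca5 (sororin) and the acetyltransferase Esco1 did not pass in any set, with differences from −0.11 to 0.08 in testis and from 0.01 to 0.22 in spermatocytes. Nipbl lost its call in testis without Het replicate 2 or any KO library (up to 0.0945) and in spermatocytes when Het replicate 1 or either of KO replicates 2 and 3 was omitted (up to 0.0748). Esco2 lost it in testis without Het replicate 2 or KO replicate 2 (up to 0.0526) and in spermatocytes without any library but Het replicate 1 (up to 0.0958). Not called there in the main fit, Pds5b and Cdca5 each passed in spermatocytes in 2 of 9 other settings. Wapl and Pds5a each did so in 1 of 9, on values as deposited.

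The number of members called depended on single libraries, as did the number of all genes called. With every P18 testis library, 1264 genes were called higher and 3164 lower. Leaving out Het replicate 2 left 0 members higher and 1 lower, beside 134 and 1103 of all genes. Leaving out KO replicate 2 left 0 members higher and 2 lower, beside 90 and 1608. For spermatocytes, omitting KO replicate 2 left 1 member higher and 2 lower. Calls over all genes then dropped to 370 higher and 3078 lower, from 1482 and 4074. With no filter on low values, only Syce1, Ccdc155, Stag3, Smc3 and Esco2 kept a call in testis and only Syce1, Ccdc155, Rad21 and Trip13 in spermatocytes. In 1 fit over all 18 libraries Syce3 and Stag2 lost theirs in testis. The choice of scaling moved the whole set too. On values as deposited the median of all genes moved to 0.12 in P18 testis and 0.17 in spermatocytes, and 14 members were called higher and 3 lower in spermatocytes; over all genes the calls were then 3986 higher and 3351 lower, against 1482 and 4074 after rescaling, and in P18 testis 2473 and 2860 against 1264 and 3164. Syce1, Ccdc155 and Nipbl kept their fall, and Rad21, Smc3, Smc1a, Esco2, Trip13 and Rec8 their rise, in spermatocytes under all 3 scalings.

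Whether the genotype difference itself changed with age was tested for 25 members, and none passed with limma (0.462% of 16010 genes higher, 5.58% lower). At an unadjusted p under 0.05, 2 of the 25 were higher and 2 lower, beside 1305 and 2352 of the 16010 genes, so neither share of members was above that of all genes. On recovered reads with voom 0 passed. Syce1 came nearest (−0.82 ± 0.22, limma adjusted p = 0.0569) and passed without P18 testis Het replicate 3 (limma adjusted p = 0.00676). Between spermatocytes and P18 testis 0 of 32 passed with limma (0.0511% of 19558 genes higher, 1.08% lower) or with voom, and 1, Cdca5 (0.33 ± 0.12, higher), had an unadjusted p under 0.05, beside 593 higher and 2350 lower of all genes. For these 25 members the differences at P18 are thus not shown to differ from those at P14, and for the 32 those of spermatocytes are not shown to differ from those of testis. Nipbl, Rad21, Esco2, Rec8 and Trip13, all called at P18, were not among the 25 because of their P14 lengths; without that limit Esco2 passed (0.37 ± 0.08, limma adjusted p = 0.0262).

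Related genes that remove, protect or partner these structures were listed apart, and 33 of 34 were found. None of 32 passed at P14 with limma (0 higher and 6 lower at an unadjusted p under 0.05, beside 482 and 1151 of 18143 genes). In P18 testis 2 of 32 were higher (6.2%, against 6.95% of all genes) and 9 lower (28.1%, against 17.4%). In spermatocytes 7 of 31 were higher (22.6%, against 9.28%) and 10 lower (32.3%, against 25.5%). The largest fall was Haspin, the histone H3 kinase of centromeres, from 30.5 to 4.06 in testis (−2.65 ± 0.33, limma adjusted p = 0.00530) and from 57.5 to 4.96 in spermatocytes (−3.30 ± 0.31, limma adjusted p = 0.000334). Aurkc, a kinase of meiotic cells with 54.8% of its 50-mers shared with other genes, fell in both as well (−1.51 ± 0.33 and −1.48 ± 0.29). Meikin, which protects centromeric REC8 (−1.51 ± 0.26 and −2.01 ± 0.22), Hspa2, a chaperone needed to take the synaptonemal complex apart (−1.47 ± 0.18 and −1.98 ± 0.22), and Psma8, the spermatocyte proteasome subunit (−1.30 ± 0.14 and −1.72 ± 0.16), fell in both. Ctcfl, a germline paralogue of CTCF (0.81 ± 0.09 and 0.66 ± 0.11), and Tex11, a crossover factor (0.37 ± 0.09 and 0.53 ± 0.12), rose in both. Aurkb (0.58 ± 0.11) and Plk1 (0.52 ± 0.11), kinases of cell division, rose in spermatocytes. In P18 testis neither passed, Aurkb with 0.19 ± 0.08 (limma adjusted p = 0.135) and Plk1 with the opposite sign, −0.21 ± 0.12 (limma adjusted p = 0.242).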

How the data were processed

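Per the file headers, the authors deposited 1 table per library: RPKM in the P14 and the spermatocyte tables, FPKM in those of whole P18 testis. The submitters' processing notes list the build GRCm38 and, as tools, edgeR 3.28.1, featureCounts, STAR 2.6.1a and CASAVA 1.9; the strand setting is not given in the sources used here.

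Deposited values times exon length fell on whole reads (within 0.02 reads in all libraries for 42970 genes at P14, 52718 in spermatocytes and 52694 in P18 testis), which gave the library totals. The P14 tables used other lengths for 8 members, so comparisons across ages kept genes with 1 length. In all, 798 older symbols were renamed. Rescaling used TMM factors (trims of 30% and 5%) from the recovered reads. Genes reaching 1 in 3 or more libraries entered the test on log2(value + 0.5) with limma 3.58.1 (R 4.3.3; trend, robust), two-sided, with Benjamini-Hochberg adjustment over all genes in each of 7 comparisons and a threshold of 0.05. Each comparison of KO with Het used its 6 libraries, the others 12. The steps were tested on simulated data. Within each group no library was a copy of another, and pairs across groups were not compared. Scaling, pseudocount, filter, recovered reads with voom, replicate block, 1 joint fit and omitted libraries were varied.

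The members and lists were chosen with earlier results of these data known. All members are named; of related genes, the up to 4 with the largest difference per direction in each comparison of KO with Het, given in both P18 sets, and those whose interaction passed. Promoters are from RefSeq (GRCm38.p6), coordinates from GENCODE on GRCm38.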

Additional observations from a re-analysis of the deposited data

Results flagged for a closer look

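For 3 of the related genes the difference between KO and Het itself differed between P18 and P14 testis by the limma test of the interaction. Haspin was lower in KO by more at P18 (−2.57 ± 0.38 SE, adjusted p = 0.00605). Ctcfl was higher in KO by more at P18 (0.61 ± 0.13, adjusted p = 0.0216), and 8.03% of its 50-mers occur in other annotated genes. Ubb was lower in KO by more at P18 (−0.44 ± 0.11, adjusted p = 0.0435), and 48.0% of its 50-mers occur in other annotated genes, so its reads may be shared with near copies.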

How the results depend on the processing

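The limits are the 3 libraries per group and the scaling. Members called higher in P18 testis numbered 0 to 3 over the omissions, 2 with no filter and 1 with the replicate block. Those called lower numbered 1 to 8 over the omissions and 3 with no filter, which called 2610 of 39372 genes lower. Over the same omissions, 90 to 1842 of all genes were called higher and 1103 to 2902 lower. In spermatocytes 1 to 7 members were called higher over the omissions, 14 on values as deposited, 2 with no filter and 11 in 1 fit over all 18 libraries. Those called lower there numbered 2 to 8 over the omissions, 3 as deposited, 3 with median-of-ratios scaling and 2 with no filter. Of all genes, 3351 of 15960 were lower as deposited, 3598 of 16188 with median-of-ratios scaling and 3718 of 38687 with no filter. Over the omissions in spermatocytes, 370 to 1440 of all genes were called higher and 2315 to 3708 lower. At P14, 1 was lower with voom. The age interaction gave 1 higher (Esco2) without the limit to 1 length, beside 116 of 19434 genes. It gave 1 lower (Syce1) with a filter of 5, beside 665 of 9529 genes, and 1 lower with the replicate block, beside 427 of 16010. Over the omissions it gave 0 to 1 lower, beside 97 to 1353 of all genes. From P14 to P18 in Het, 15 members were higher and 5 lower on values as deposited. Over all genes the calls were then 6433 higher and 3410 lower of 16110, against 4225 and 5770 of 16010 after rescaling. With a pseudocount of 1 the mean log2 ratio of Rec8 over Rad21 in Het spermatocytes was −2.35 and of Stag3 over Stag1 in P14 KO 1.18. The causes were not tested.

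Sign changes were seen mostly among small differences that did not pass. On values as deposited, Smc1b was 0.064 in P18 testis, and in spermatocytes Sycp3 was 0.206, Tex12 0.062, Hormad1 0.187, Smc1b 0.175, Sun1 0.167 and Wapl 0.21; with median-of-ratios scaling Sycp3 was 0.011 and Wapl 0.017. In Het, Cdca5 was 0.038 between ages and Rad21 −0.02 between preparations, both as deposited. Over the omitted libraries at P14, Syce2 ran from −0.044 to 0.06, 4930447C04Rik from −0.153 to 0.008, Rec8 from −0.056 to 0.126, Smc1a from −0.01 to 0.068, Smc3 from −0.003 to 0.094, Stag1 from −0.08 to 0.042, Stag2 from −0.068 to 0.087, Pds5a from −0.085 to 0.009, Pds5b from −0.08 to 0.043, Esco1 from −0.103 to 0.041 and Esco2 from −0.059 to 0.033. In P18 testis, Smc1b ran from −0.078 to 0.047 and Terb2 from −0.243 to 0.002. In spermatocytes, Sycp1 ran from −0.007 to 0.185, Sycp3 from −0.117 to 0.02, 4930447C04Rik from −0.121 to 0.21, Hormad1 from −0.142 to 0.007, Hormad2 from −0.034 to 0.125, Smc1b from −0.163 to 0.053, Wapl from −0.108 to 0.02 and Esco1 from −0.023 to 0.045.

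Over all genes, calls in P18 testis were 1264 higher and 3164 lower, against 394 higher with no filter, 563 with the replicate block and 2133 with voom. In spermatocytes they were 1482 and 4074, against 753 higher with no filter and 3160 in 1 fit over all 18 libraries. At P14 they were 2 and 34, against 6 and 250 with voom and 0 and 3 with the replicate block.

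Replicate numbers are shared between genotypes, but deviations of same-numbered libraries correlated by only 0.068, 0.082 and 0.092 at P14, 0.231, 0.055 and 0.092 in spermatocytes and 0.023, 0.004 and −0.03 in P18 testis, so the numbers were not taken as pairs. Every library correlated best with its own number at P14 and in spermatocytes but not in P18 testis, a hint from the data only. The block ended the calls of Smc3, Rad21 and Stag2 in P18 testis and of Smc3 and Syce3 in spermatocytes. With it, counts of members called stayed within 1.5 times in all comparisons but those named above.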
